A study of Prunus persica with 16 samples.

Results

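The genes described here are 65 of the 26873 gene identifiers measured in peach buds. They were chosen by their measured levels: buds treated with hydrogen cyanamide (HC) and untreated buds had like levels 3 days after treatment, and the HC buds were higher at 7 days. They were selected on the deposited FPKM values of all 16 libraries, a read level scaled for gene length and library size. For each gene the group median of log2(FPKM + 1) was taken over 4 libraries, and the gap is the HC median minus the control median. A member had a mean of 20 FPKM or more, a 3-day gap between -0.5 and 0.5 and a 7-day gap of 1.5 or more, and the run Prupe.1G531100 to Prupe.1G531700 was left out. Of the 26873 identifiers, 5729 reached the mean level, 3457 of these met the limits at 3 days, and 65 of those met the limit at 7 days, against 25 with a 7-day gap of -1.5 or less. The 65 were put forward as a late rise after HC. Most of them did not show a rise of 1 or more (log2) in HC buds. Between day 3 and day 7 the HC median was higher by 1 or more in 16 of 65, and the control median was lower by 1 or more in 52 of 65. By any amount, the HC median was higher in 33 of 65 (49.4% of the 5729) and the control median lower in 60 of 65 (53.9%). The 65 are therefore called the late-gap genes here.

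The buds came from 5-year-old trees of TropicBeauty, a peach cultivar that needs 150 chilling hours, grafted on Floridaguard rootstock and standing in an orchard with 11 chilling hours met. The HC groups at 7 and 3 days came from trees sprayed with HC at 1% (v/v), together with a non-ionic surfactant at 0.15% (v/v). The control groups of the same days came from trees that got no HC, and the labels mention no surfactant for them, so the effects of HC and of surfactant cannot be told apart. Each of the 4 groups has 4 libraries, 1 per replicate tree. The labels do not state whether the buds of both days were cut from the same trees.

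Buds of temperate fruit trees pass the winter in dormancy and resume growth after a set amount of cold. Hydrogen cyanamide is sprayed on dormant trees to bring bud break forward where winters are mild. As background, it is known to inhibit catalase and to disturb respiration and redox balance in buds, and growth resumes some time after that stress. No identifier of the 65 could be tied to a gene name or product here, because the files give none and 0 of the 26873 identifiers matched the reference gene table, so the genes are given by identifier and level with no function, and bud markers could not be checked. The libraries are whole buds, in which fewer cells of a type and less RNA per cell cannot be told apart.

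Depth could be estimated for 12 of 16 libraries, in which low values fell on whole multiples of 1 read once gene length was allowed for. It ran from 560000 reads in control replicate 1 at 7 days to 10910000 in control replicate 3 at 3 days, with a median of 3570000, to the nearest 10000. HC replicates 2, 3 and 4 of day 7 had 3560000, 2600000 and 3380000 reads, and the depth of HC replicate 1 could not be estimated. The 4 control libraries of day 7, on which the choice of genes leans, had 560000, 3570000, 2080000 and 9020000 reads in the order of their replicate numbers. The next shallowest of the 12 was control replicate 2 at 3 days, with 1430000 reads and 8667 genes above 0, the fewest of any library. Control replicate 1 at 7 days had 10356 genes above 0 from fewer reads, and other libraries had up to 18378.

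The 65 genes stood at nearly the same level in 3 of the 4 groups and lower in control buds at 7 days. Read back from the median of the group medians, that level was 36.0 FPKM in HC buds and 8.50 FPKM in control buds at 7 days, and 34.1 FPKM in HC buds and 36.4 FPKM in control buds at 3 days. By library, the median over the 65 genes was 35.6, 30.8, 45.4 and 43.5 FPKM in the HC libraries of day 7, against 0, 20.6, 6.33 and 14.4 FPKM in the control libraries. At 3 days it was 34.0, 36.2, 39.2 and 32.0 FPKM in the HC libraries, against 31.2, 57.1, 37.8 and 36.0 FPKM in the control libraries. The control libraries of day 7 were thus all under the 12 others, with control replicate 1 lowest and control replicate 2 highest among them. The 7-day gap, which chose the genes, had a median of 1.90 and ran from 1.51 to 4.90. It was under 2 in 35 genes and 3 or more in 12.

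**Figure D1:**
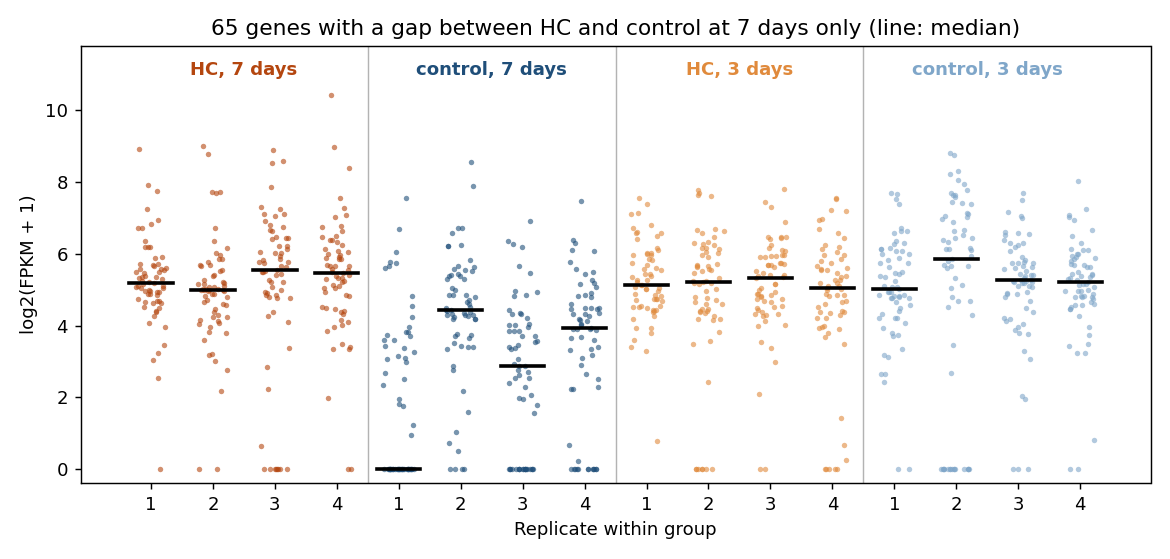
Level of the 65 late-gap genes, log2(FPKM + 1), in each of the 16 libraries, with HC left of control for each day; each point is a gene and each line the median over the genes. The medians of the 4 control libraries of day 7, from 0 to 20.6 FPKM, lie below those of the 12 other libraries, which run from 30.8 to 57.1 FPKM.

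Since the 3-day gap had to be small and the 7-day gap large, HC and control had to part between the days, but the rule did not fix which of them moved. The genes were sorted by the change of each treatment's median from day 3 to day 7, with a step of 1 (log2) counted as a change. In 36 of the 65 genes (55.4%) the control median was lower at 7 days and the HC median kept within 1. In 11 genes both were lower at 7 days, control by more. In 9 genes the HC median was higher and control kept within 1, in 5 the HC median was higher and control lower, in 2 both were higher, and in 2 neither moved by 1. The median change from day 3 to day 7 over the 65 genes was 0.07 in HC buds and -2.20 in control buds. Over the other 3392 genes with a 3-day gap inside the limits it was -0.06 in HC buds and -0.17 in control buds. An HC median higher by 1 or more was seen in 24.6% of the 65 genes and 8.37% of those 3392, and a control median lower by 1 or more in 80% of the 65 and 13.6% of those 3392. These libraries are the ones that chose the genes, so these shares describe the choice and are not tested.

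**Figure D2:**
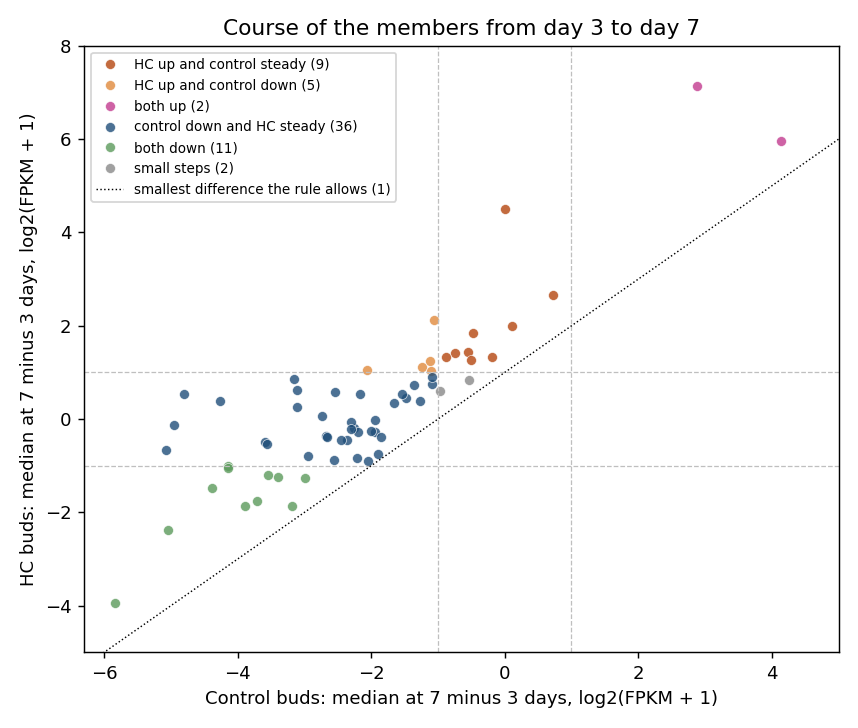
Change of the group median from day 3 to day 7, log2(FPKM + 1), in HC buds (y axis) and control buds (x axis) for each of the 65 late-gap genes, coloured by course; dashed lines mark a step of 1 and the dotted line the smallest difference the rule allows. Of the 65 points, 16 lie above 1 on the y axis and 52 lie left of -1 on the x axis.

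The same was seen in limma fits of log2(FPKM + 1) over all 16596 genes that had 1 FPKM or more in at least 4 libraries, of which 64 were late-gap genes. From day 3 to day 7 in HC buds, 6 of 64 were called higher (Benjamini-Hochberg adjusted p under 0.05), where 3.62% of all tested genes were, and 1 was called lower, where 2.62% of all tested genes were. In control buds over the same days, 21 of 64 were called lower (3.95% of all tested genes) and 0 were called higher (3.41%). At an unadjusted p under 0.05, 0 of the 64 were higher as well, against 1573 of all 16596 tested genes. The median log2 change over the 64 was -0.09 in HC buds and -2.19 in control buds, against 0.08 and -0.02 over all tested genes. Because the rule used these libraries, the counts are no independent evidence of a change. The count of 6 in HC buds was 3 without HC replicate 1, 3 or 4 of day 7 or HC replicate 1 or 4 of day 3, and 10 when the HC libraries alone were fitted. The count of 21 in control buds was 13 without control replicate 3 of day 7, 14 without control replicate 1 of day 7, 13 without control replicate 4 of day 3 and 4 when the control libraries alone were fitted.

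In the contrasts that the rule itself used, 3 of 64 genes were called higher in HC than in control buds at 7 days (0.325% of all tested genes). They were Prupe.4G257500, Prupe.6G110500 and Prupe.6G113500. At 3 days limma called 0 (1.81% of all tested genes, either direction). At an unadjusted p under 0.05 the count was also 0, where 1177 of all 16596 tested genes were higher in HC buds and 729 lower. The HC effect was called larger at 7 than at 3 days in 0 (0.356% of all tested genes). At an unadjusted p under 0.05 it was larger in 27 of the 64, and in 1018 of all 16596 tested genes. Nothing is read from these counts. The count at 7 days was 0 without HC replicate 4 or control replicate 3 of day 7, and 1 without HC replicate 1 or 3 or control replicate 1 or 4 of that day. It was 11 without control replicate 2 of day 3 and 14 without control replicate 2 of day 7.

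Genes in which the HC median was higher at 7 days and control kept within 1 came nearest to a late rise. Prupe.6G138800 had the clearest of these courses and was singled out after its values were seen. At 7 days it had 240.35, 209.6, 136 and 156 FPKM in HC libraries, against 64.8, 93.9, 49.9 and 29.2 FPKM in control libraries. At 3 days it had 25.5, 35.1, 30.5 and 14.25 FPKM in HC libraries, against 40.75, 39.3, 29.7 and 21.9 FPKM in control libraries. Every HC library of day 7 was above every other library of the study. From day 3 to day 7 its log2 level changed by 2.80 ± 0.39 (SE, limma, 4 libraries a group) in HC buds and by 0.76 ± 0.39 in control buds, and limma called the first of these in all 25 alternative fits. As the gene was picked for its clear course, these calls are no test of stability.

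Prupe.6G113500 and Prupe.6G110500 had the highest mean levels of the 65, 251 and 150.1 FPKM over all libraries. Prupe.6G113500 had 484, 441, 387 and 499.55 FPKM in HC libraries at 7 days, against 54.2, 237, 119 and 177 FPKM in control libraries. Its levels at 3 days were 139, 193, 222 and 189 FPKM in HC libraries, against 204, 206, 206 and 263 FPKM in control libraries. The HC libraries of day 7 were all above the rest, and the control libraries of day 7 reached from the lowest of the 16 libraries into the range of day 3. Its estimated reads in the control libraries of day 7 were 15.9, 455, 127 and 855, so the low value of control replicate 1 rests on few reads. Its change from day 3 to day 7 was 1.30 ± 0.32 in HC buds and -0.76 ± 0.32 in control buds (log2, SE).

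Prupe.6G110500 had 215, 212, 366 and 338 FPKM in HC libraries at 7 days, against 49.25, 104, 75.9 and 82.4 FPKM in control libraries. On day 3 it had 110.5, 102, 118 and 102 FPKM in HC libraries, against 166, 50.5, 182 and 130.2 FPKM in control libraries. The groups of day 7 did not overlap, and at 3 days the HC libraries lay within the range of the control libraries. Its 3-day gap was -0.47, close to the limit of the rule, and its change from day 3 to day 7 was 1.34 ± 0.35 in HC buds and -0.65 ± 0.35 in control buds (log2, SE).

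Prupe.6G210900 and Prupe.7G028500 were the members of this course with the largest 7-day gaps among those whose HC and control libraries did not overlap at 7 days. Prupe.6G210900 had 80.9, 57.0, 83.6 and 82.0 FPKM in HC libraries at 7 days, against 12.4, 46.7, 19.1 and 14.4 FPKM in control libraries. At 3 days it had 32.1, 26.4, 41.2 and 27.6 FPKM in HC libraries, against 29.5, 10.1, 33.0 and 27.2 FPKM in control libraries. All HC libraries of day 7 were above all 12 other libraries, the nearest of which was control replicate 2 of day 7.

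Prupe.7G028500 had 151, 81.55, 158 and 106 FPKM in HC libraries at 7 days, against 14.6, 75.6, 30.2 and 32.8 FPKM in control libraries. Its levels at 3 days were 34.0, 34.5, 40.5 and 31.6 FPKM in HC libraries, against 53.1, 60.5, 36.8 and 22.6 FPKM in control libraries. Control replicate 2 of day 7 came close to HC replicate 2, and the other control libraries of that day were less than 33 FPKM. limma called its change in HC buds (1.75 ± 0.43, log2, SE) and those of Prupe.6G113500 and Prupe.6G110500, and did not call that of Prupe.6G210900 (1.23 ± 0.45). The call of Prupe.7G028500 was lost in 3 of 25 alternative fits, without HC replicate 1 or 3 of day 7 or HC replicate 4 of day 3. That of Prupe.6G113500 was also lost in 3, without HC replicate 1 or 4 of day 7 or HC replicate 1 of day 3. That of Prupe.6G110500 was lost in 6, among them the fits without HC replicate 3 or 4 of day 7 and without HC replicate 1, 2 or 4 of day 3. Of the other 4 members of this course, Prupe.2G246200, Prupe.1G148700 and Prupe.2G145300 had 7-day gaps between 1.53 and 1.88 with control libraries that overlapped the HC libraries.

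The last, Prupe.1G459600, had the largest 7-day gap of the course (4.50) and the least data behind it. It was listed at 512 and 1370.3 FPKM in HC replicates 2 and 4 of day 7 and at 95.4 FPKM in HC replicate 1 of day 3, and at 0 in the other 13 libraries, all 8 control libraries among them. By the estimated reads, the values of day 7 stand for 6.4 and 16.6 reads. It was the only late-gap gene that limma did not test, as too few libraries had 1 FPKM.

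In 5 genes the HC median was higher and the control median lower at 7 days. Prupe.4G257500 had 113, 50.7, 150.1 and 109 FPKM in HC libraries at 7 days, against 13.2, 11.97, 9.32 and 16.4 FPKM in control libraries. On day 3 it had 21.7, 31.3, 21.35 and 28.0 FPKM in HC libraries, against 32.8, 166, 15.3 and 22.6 FPKM in control libraries. The groups of day 7 were far apart, and control replicate 2 of day 3, 1 of the shallow libraries, was the highest of all 16. Its change from day 3 to day 7 was 1.92 ± 0.56 in HC buds, which limma called, and -1.51 ± 0.56 in control buds, which it did not call (log2, SE). The call in HC buds was lost in 15 of 25 alternative fits, among them those without HC replicate 1, 3 or 4 or control replicate 2, 3 or 4 of day 7, and without any 1 HC library or control replicate 1 or 4 of day 3. Prupe.4G257500 met the rule for the late gap whichever of the 16 libraries was left out.

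Prupe.6G063300, the other gene of this course with no overlap at 7 days, had 47.5, 37.4, 85.6 and 27.6 FPKM in HC libraries, against 0, 19.6, 10.7 and 5.24 FPKM in control libraries. At 3 days it had 21.4, 13.1, 18.9 and 18.7 FPKM in HC libraries, against 17.6, 0, 28.3 and 21.1 FPKM in control libraries. Neither of its changes with time was called. In Prupe.2G154500 the median and the mean disagreed: the HC libraries of day 7 had 33.3, 21.2, 0 and 28.1 FPKM, all below control replicate 1 with 186 FPKM, while control replicates 3 and 4 were listed at 0. Mean FPKM at 7 days was lower in HC than in control buds in 3 of the 65 genes, of which this is 1. The others were Prupe.5G200900 and Prupe.1G342400, each with its highest value of day 7 in control replicate 1.

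Both treatments had higher medians at 7 days in Prupe.8G066200 and Prupe.1G258600. Prupe.8G066200 had 122, 50.55, 97.6 and 66.7 FPKM in HC libraries at 7 days, against 0, 40.5, 12.2 and 67.9 FPKM in control libraries. Its levels at 3 days were 0.73, 0, 3.26 and 0 FPKM in HC libraries, against 26.1, 0, 0 and 0.76 FPKM in control libraries. It was thus near 0 in 7 of 8 libraries at 3 days and well above 0 in 7 of 8 at 7 days, with HC and control overlapping on both days. The change in HC buds, 5.61 ± 1.16 (log2, SE), was the largest that limma called among the 64, and that in control buds, 2.41 ± 1.16, was not called. Prupe.1G258600 reached 477 FPKM in HC replicate 3 and 378 FPKM in control replicate 2 at 7 days, but by the estimated reads these are 2.3 and 2.6 reads, so its level is not resolved at this depth.

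**Figure D3:**
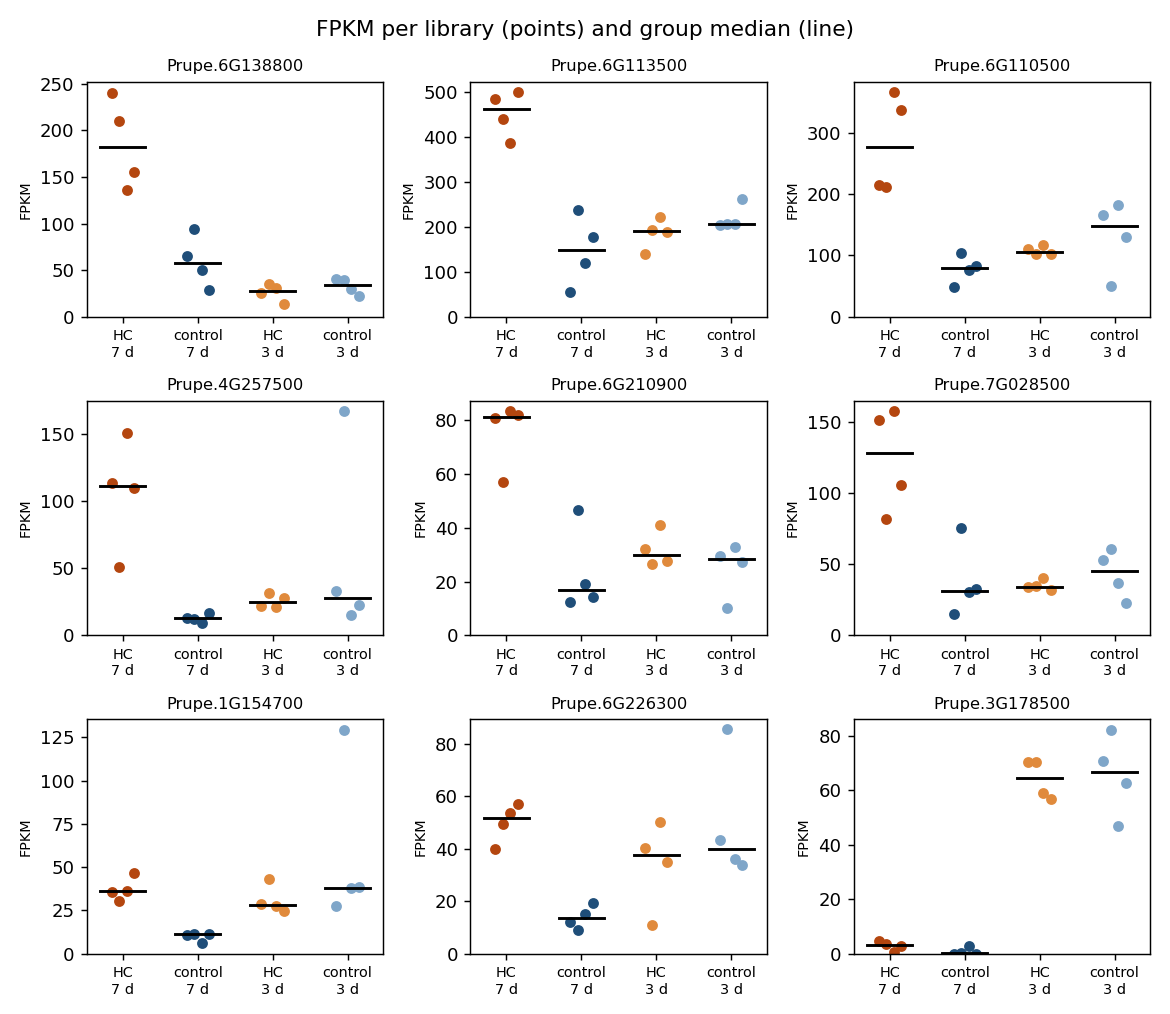
FPKM in each library (points) and group median (line) for 9 late-gap genes, with HC left of control and day 7 left of day 3. In the upper 6 genes the HC libraries of day 7 lie above the other groups except for single control libraries, in Prupe.1G154700 and Prupe.6G226300 the control libraries of day 7 lie below all HC libraries of that day, and in Prupe.3G178500 both treatments are under 5 FPKM at 7 days.

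The largest course, with 36 genes, had lower control medians at 7 days and HC medians near those of day 3. From day 3 to day 7, limma called 0 of the 36 in HC buds (3.62% of all tested genes higher and 2.62% lower) and 11 lower in control buds (3.95% of all tested genes). The genes were sorted into this course by these same changes, so the counts restate the sorting and nothing is read from them. Prupe.1G500700 and Prupe.3G257300 had the largest gaps among those without overlap at 7 days. Prupe.1G500700 had 46.4, 57.45, 44.4 and 87.05 FPKM in HC libraries at 7 days, against 0, 32.0, 17.6 and 0 FPKM in control libraries. On day 3 it had 34.0, 24.4, 32.0 and 11.7 FPKM in HC libraries, against 32.9, 192, 24.6 and 42.6 FPKM in control libraries. Prupe.3G257300 had 50.02, 31.6, 73.7 and 36.5 FPKM in HC libraries at 7 days, against 0, 21.9, 3.92 and 18.2 FPKM in control libraries. At 3 days it had 52.5, 46.0, 43.6 and 65.0 FPKM in HC libraries, against 63.2, 24.8, 52.6 and 39.3 FPKM in control libraries. In Prupe.3G257300 the HC libraries of day 7 overlapped those of day 3, and in Prupe.1G500700 they were all above them, with a median that moved by less than 1. The change from day 3 to day 7 in control buds was -3.38 ± 0.95 in Prupe.1G500700 and -2.67 ± 0.72 in Prupe.3G257300 (log2, SE), each called by limma. The first call was lost in 9 of 25 alternative fits, among them those without control replicate 1 or 4 of day 7 or control replicate 2 or 4 of day 3. The second was lost in 7, among them those without control replicate 3 of day 7 or control replicate 1, 3 or 4 of day 3.

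Other genes of this course had smaller gaps and less spread among the control libraries. They were picked for that after their values were seen. Prupe.1G154700 had 35.6, 30.5, 36.4 and 46.7 FPKM in HC libraries at 7 days, against 11.1, 11.7, 6.31 and 11.6 FPKM in control libraries. Its levels at 3 days were 28.6, 43.3, 27.7 and 24.4 FPKM in HC libraries, against 27.9, 129, 37.8 and 38.45 FPKM in control libraries. Prupe.6G226300 had 39.9, 49.6, 53.7 and 57.1 FPKM in HC libraries at 7 days, against 12.1, 9.14, 15.03 and 19.3 FPKM in control libraries. On day 3 it had 40.4, 10.9, 50.4 and 35.2 FPKM in HC libraries, against 43.2, 85.6, 36.3 and 34.0 FPKM in control libraries. In both genes all 4 control libraries of day 7 were below all 4 of day 3, and none was at 0. The change in control buds was -2.17 ± 0.46 in Prupe.1G154700, called in 24 of 25 alternative fits, and -1.71 ± 0.46 in Prupe.6G226300, called in 17 of 25 (log2, SE). The second call was lost, among others, without control replicate 1, 2 or 3 of day 7 or control replicate 1 or 2 of day 3. Both genes met the rule with any 1 library left out. Because low control spread was what they were picked for, their SE, calls and omissions describe the pick and are no test of stability.

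The largest 7-day gaps of all 65 were also in this course and rested on libraries at 0. Prupe.6G279300, with a gap of 4.90, had 25.9, 30.8, 27.0 and 33.4 FPKM in HC libraries at 7 days, against 0, 0, 0 and 35.5 FPKM in control libraries. Prupe.8G136900, with a gap of 4.79, had 34.7, 33.1, 73.4 and 74.6 FPKM in HC libraries, against 0, 49.4, 2.45 and 0 FPKM in control libraries. In both, 1 control library lay within or above the range of the HC libraries. Across the 65 genes the groups of day 7 did not overlap in 18 (5.93% of all genes of mean 20 FPKM or more, in a contrast that the rule used).

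In 11 genes both treatments had lower medians at 7 days. limma called 1 of the 11, Prupe.3G178500, lower in HC buds (2.62% of all tested genes) and 10 lower in control buds (3.95%), counts that again follow from the sorting. Prupe.3G178500 had 4.76, 3.50, 0.57 and 2.97 FPKM in HC libraries at 7 days, against 0, 0.41, 2.92 and 0 FPKM in control libraries. At 3 days it had 70.4, 70.3, 58.8 and 56.6 FPKM in HC libraries, against 70.7, 81.9, 46.8 and 62.8 FPKM in control libraries. The days were fully apart in both treatments, by -4.18 ± 0.58 in HC buds and -5.41 ± 0.58 in control buds (log2, SE), and the 7-day gap of 1.83 is a difference between very low levels, at which HC and control overlapped. Prupe.3G017600 had 44.3, 16.6, 88.2 and 39.0 FPKM in HC libraries at 7 days, against 0, 18.6, 5.57 and 13.95 FPKM in control libraries. Its levels at 3 days were 138, 217, 172 and 122 FPKM in HC libraries, against 185, 140.5, 133 and 151 FPKM in control libraries. No HC library of day 7 reached the lowest of day 3 in this gene, and limma called its change in control buds (-4.52 ± 0.68) and not in HC buds (-1.96 ± 0.68; log2, SE). In 0 of these 11 genes were all HC libraries above all control libraries at 7 days. That was so in 5.93% of all genes of mean 20 FPKM or more, so nothing is read from the 0.

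Values of 0 were common among the late-gap genes in the control libraries of day 7. Such values lower the control median and so widen the gap by construction, and the counts only describe the genes that the rule took. In the order of replicate numbers, the HC libraries of day 7 listed 1, 2, 8 and 2 of the 65 genes at 0. These were 1.54%, 3.08%, 12.3% and 3.08% of the 65, against 0.49%, 1.06%, 2.97% and 1.41% of all 5729 genes of mean 20 FPKM or more. The control libraries of day 7 listed 33, 4, 19 and 12 at 0 (50.8%, 6.15%, 29.2% and 18.5%), against 9.91%, 0.98%, 2.97% and 1.64% of all 5729 genes of mean 20 FPKM or more. At 3 days the HC libraries listed 0, 7, 2 and 5 at 0 (0%, 10.8%, 3.08% and 7.69%), against 0.30%, 2.25%, 0.54% and 2.53% of those 5729 genes. The control libraries of that day listed 2, 17, 3 and 2 at 0 (3.08%, 26.2%, 4.62% and 3.08%), against 1.24%, 16.0%, 0.93% and 1.15%. The 16.0% in control replicate 2 of day 3 was the highest share of the 5729 genes in any library. The high counts thus fell in the 3 shallowest of the libraries with a known depth, control replicate 1 of day 7, control replicate 2 of day 3 and control replicate 3 of day 7, and also in control replicate 4 of day 7, which was among the deepest with 9020000 reads.

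**Figure D4:**
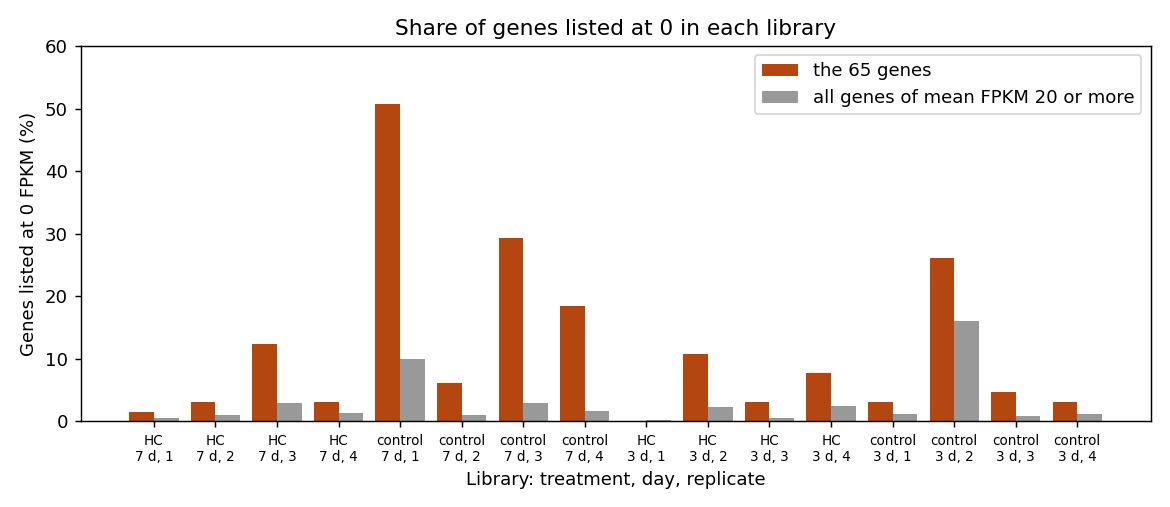
Share of genes listed at 0 FPKM in each library (y axis, percent), for the 65 late-gap genes (left bar of each pair) and for all 5729 genes with a mean of 20 FPKM or more (right bar). The late-gap genes reach 50.8% in control replicate 1 of day 7 against 9.91% of all genes, and 18.5% against 1.64% in control replicate 4.

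The reads behind a late-gap gene differed widely between libraries. The median estimated reads per gene were 73.9, 79.0 and 91.2 in HC replicates 2, 3 and 4 of day 7, against 0, 45.0, 9.66 and 81.7 in the control libraries of day 7. For the libraries of day 3 with a known depth they were 162 and 137 in HC replicates 2 and 4, against 71.4, 53.8 and 317 in control replicates 1, 2 and 3. Few reads were thus seen in control replicates 1 and 3 of day 7. The length-like factor that turns FPKM into reads had a median of 1.23 over the 65 genes and 1.94 over all genes of mean 20 FPKM or more, and 52 of the 65 were under the latter. Their median level, 37.0 FPKM over all libraries, was lower than the 52.4 FPKM of those genes. In control replicate 1 of day 7, 1 read of the median late-gap gene was worth 2.64 FPKM, and all 65 genes together had 270 reads. They had 7598, 7668 and 9399 reads in HC replicates 2, 3 and 4 of day 7, against 5284, 1404 and 8378 reads in control replicates 2, 3 and 4 of that day, and between 5655 and 25133 reads in the libraries of day 3 with a known depth. At the control level of day 3, the 33 genes at 0 in that library would have had a median of 11.5 reads there, and 4 of them fewer than 3. At the median of the other control libraries of day 7 they would have had a median of 3.78 reads, and 15 of them fewer than 3. In the 26 genes with no control library of day 7 at 0, a split by values that the rule used, the 7-day gap had a median of 1.69, and the change from day 3 to day 7 a median of 0.67 in HC buds and -1.19 in control buds. How much depth contributed to the gap was not tested.

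The spread within groups was wider in control than in HC buds on both days. The SD of log2(FPKM + 1) over the 4 libraries had a median over the 65 genes of 0.69 in HC buds and 1.90 in control buds at 7 days, and of 0.45 in HC buds and 1.19 in control buds at 3 days. Over the 3392 other genes with a small 3-day gap it was 0.39 in HC buds and 0.50 in control buds at 7 days. At 3 days it was 0.34 in HC buds and 0.54 in control buds over those genes. The wider control spread was thus not particular to the 65 genes, though its size was larger in them. The rule used these same values, so the spread is only described. Control replicate 1 was the lowest or joint lowest control library of day 7 in 47 of the 65 genes (72.3%, against 40.5% of all genes of mean 20 FPKM or more), and control replicate 2 the highest in 36 (55.4%, against 23.2%).

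Single libraries were left out in turn, from the same libraries that chose the genes. Where a control library of day 7 was low in a gene, leaving it out could only keep or narrow the gap. Where it was high, leaving it out could only keep or widen the gap. The counts below therefore describe the choice and are no independent test of stability. Without any 1 HC library of day 7, the gap stayed at 1.5 or more in 56 to 58 of the 65 genes. Without control replicate 1 of day 7 it did in 31, and its median was 1.48. Without control replicate 3 it did in 36, without control replicate 4 in 51 and without control replicate 2 in 62. The median change of control buds from day 3 to day 7 remained negative in each case, at -1.27 without control replicate 1 and -2.66 without control replicate 2. With the whole rule applied anew, 45 genes met it without control replicate 1 of day 7, of which 29 were among the 65, 106 without control replicate 4 and 133 without control replicate 2. Of the 65 genes, 11 met the rule under each of the 16 omissions of 1 library, Prupe.4G257500, Prupe.6G210900, Prupe.1G154700, Prupe.6G226300, Prupe.3G017600 and Prupe.3G178500 among them. With group means in place of medians the rule took 89 genes, of which 20 were among the 65: in 34 of the 65 the gap of the means at 3 days was outside the limits, and in 14 that at 7 days was under 1.5.

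**Figure D5:**
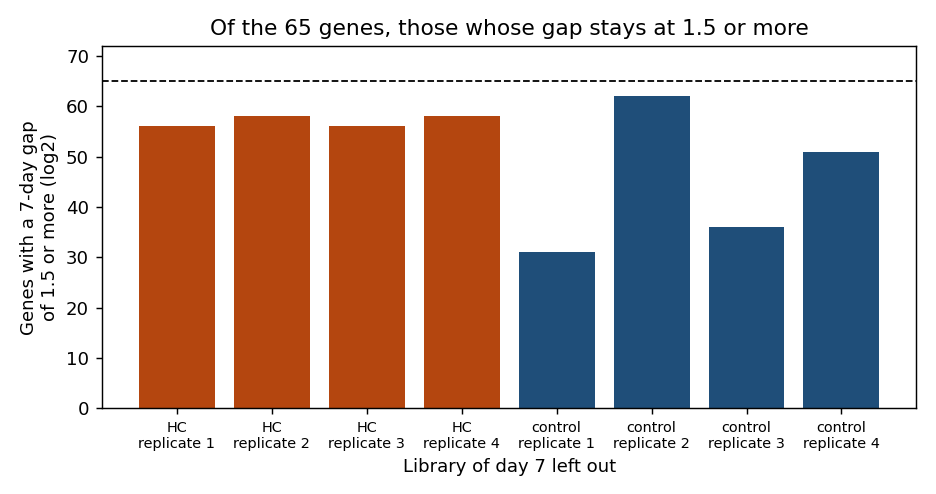
Number of the 65 late-gap genes whose 7-day gap stayed at 1.5 or more (log2, y axis) when 1 library of day 7 was left out (x axis, HC libraries left of control libraries); the dashed line marks all 65. The count is between 56 and 58 without an HC library and is lowest, at 31, without control replicate 1.

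All 65 genes were in the authors' deposited tables, which compare HC with control on each day. In the authors' deposited table for 7 days, 27 of the 65 had a positive log2 fold change with an adjusted p-value under 0.05 (4.73% of the 19439 genes in it), and 0 a negative one. Their log2 fold changes in the authors' deposited table ran from -1.45 to 2.83 with a median of 1.44, against 0.14 over the whole table. The 3 negative ones in the authors' deposited table were those of Prupe.2G154500, Prupe.5G200900 and Prupe.1G342400. In the authors' deposited table for 3 days, 1 of the 65 was listed with an adjusted p-value under 0.05 (8.82% of the 19636 genes in it, either direction), Prupe.1G262100 at a log2 fold change of 0.54. These tables hold the contrasts that the rule used, from the same libraries, so nothing is read from the counts.

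The limits of the rule cut through a continuum. Prupe.6G298900 was just inside the limit on the 7-day gap with 1.51, and Prupe.2G143700 just outside with 1.496. Prupe.1G243100 and Prupe.6G202300 were just inside the limits on the 3-day gap with 0.49 and -0.49, and Prupe.1G223200 and Prupe.2G123500 just outside with 0.502 and -0.57. Prupe.1G342400 was just inside the limit on the mean with 20.4 FPKM, and Prupe.1G048300 just outside with 19.7 FPKM. The gap of Prupe.1G342400 was the least stable of the 65: it met the rule under 5 of the 16 omissions of a library, and at 7 days it had 24.55, 12.95, 19.8 and 10.25 FPKM in HC libraries, against 52.1, 0.64, 0 and 17.3 FPKM in control libraries.

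By the number in their identifiers the genes were spread over all 8 chromosomes, with 14 on chromosome 1, 10 on 6 and between 5 and 9 on each of the others. Shares were within 3 percentage points of those of all genes of mean 20 FPKM or more (21.5% against 23.1% on chromosome 1). No members stood next to each other in the order of the deposited matrix, and the closest were 7 places apart.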

How the data were processed

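The authors deposited a matrix of 26873 gene identifiers by 16 libraries, whose values are FPKM as far as the numbers show (not whole, with library sums from 1052240 to 1209110). For each day a further deposited table compares the treatments, by the authors' log2 fold change, adjusted p-value and a signal value for HC and for control; how these were made is not given in the sources used here. Trimmomatic, STAR 2.5.2a and RSEM 1.2.31 are named per the submitters' processing notes, with no genome build. The labels gave each library's group and replicate.

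The membership rule was applied to the deposited FPKM. limma 3.58.1 (R 4.3.3, statmod 1.5.0, trend and robust settings) was fitted to log2(FPKM + 1) of all 16 libraries. It had a mean for each group and Benjamini-Hochberg adjustment over 16596 genes. The fit was run on simulated data, in which changes were placed only in genes of low spread, with the same spread in every group. The simulation therefore does not cover genes with a control spread as wide as that of the late-gap genes at 7 days. A difference on this scale understates the change of low genes. Reads were estimated from a length-like factor per gene, obtained by dividing the deposited signal by FPKM, and the step between low values; a library was used where 75% or more of low values lay within 0.2 of a whole number of steps (40% by chance). The members, the lists and the settings were chosen with earlier results of these data known. Named genes are the 2 largest 7-day gaps without overlap per course of 5 or more genes, the 2 highest means, those nearest each limit, and others said to be picked later or named because they are few.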

Additional observations from a re-analysis of the deposited data

Results flagged for a closer look

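Of 68 groups of 4 libraries tested, those of the 16 genes named by rule and the medians over the 65 genes, 8 held a library whose distance from its nearest neighbour, as a share of the group's range, was over Dixon's 95% critical value. The ratio was taken on FPKM and not on the log2 scale used elsewhere. Chance gives about 1 in 20 only for normally distributed values, and FPKM values with a long upper tail are flagged more readily. The number flagged is therefore not set against chance, and no library is judged by it. Control replicate 2 of day 3, a shallow library, stood high in 4 of them, at 192 FPKM in Prupe.1G500700, 166 FPKM in Prupe.4G257500, 169 FPKM in Prupe.6G202300 and 265 FPKM in Prupe.6G298900. Prupe.6G113500 was high in control replicate 4 of day 3 (263 FPKM) and Prupe.6G210900 low in HC replicate 2 of day 7 (57.0 FPKM). Outside the 65 genes, Prupe.1G048300 was set apart in HC replicate 3 of day 7 at 45.3 FPKM and Prupe.2G143700 in control replicate 1 of day 7 at 72.2 FPKM. The cause was not tested. Differences of the HC effect between days are not listed, because the rule that chose the genes fixed them.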

How the results depend on the processing

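The rule took 65 genes, and 39 with a pseudocount of 5, 169 with a minimum mean of 10 FPKM and 701 with none. Without the 2 shallowest libraries of known depth, a setting chosen after seeing the data, it took 44 genes, of which 21 were among the 65. Of the genes taken, those with an HC median higher by 1 or more at 7 days numbered 16. They numbered 45 with the minimum of 10 FPKM, 356 with no minimum and 9 without the 2 shallowest libraries. Omitting 1 library gave 45 to 133 and 8 to 22 genes. Calls in HC buds with time were 6 higher and 1 lower; they became 10 and 4 when only the libraries compared were fitted, while the lower calls became 2 with a pseudocount of 5, 6 with array weights and 3 without the 2 shallowest libraries. Over the omissions they ran from 3 to 8 and from 1 to 2. Lower calls in control buds with time (21) became 13 with a pseudocount of 0.1 and 4 with only the libraries compared, and ran from 13 to 24 over the omissions; higher calls (0) from 0 to 1. Calls of HC above control at 7 days (3) became 5 with a pseudocount of 5, with array weights and without the 2 shallowest libraries, and ran from 0 to 14 over the omissions. Calls of a larger HC effect at 7 days (0) became 2, 5 and 3 under those settings and ran from 0 to 2 over the omissions. Calls at 3 days stayed at 0. Over the omissions, the median change with time ran from -0.13 to 0.03 in HC buds and from -2.48 to -1.67 in control buds. In control buds it was -2.55 with a pseudocount of 0.1 and -1.58 with a pseudocount of 5. The cause was not tested. The authors' count of 27 was 20 at an adjusted p under 0.01. With the replicate number as a block, 3 genes were called at 7 days, 4 higher in HC buds and 17 lower in control buds with time. Between libraries of the same replicate number, deviations from the group mean had correlations between -0.05 and 0.13. No pairing was seen in them, but such values cannot settle whether the libraries shared trees. Scaling by median of ratios left 52 genes under the rule, all among the 65, and moved no list count by more than 1.5 times; it moved the median of all tested genes from -0.02 to 0.07 in control buds with time and from 0.27 to 0.18 for HC against control at 7 days. Among the libraries with a known depth, levels were least resolved in control replicate 1 of day 7, where 1 read of the median late-gap gene was worth 2.64 FPKM. How much this contributed to the gap was not tested.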
